A study of Caenorhabditis elegans with 6 samples.

Results

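The miR-35 family of the nematode Caenorhabditis elegans comprises the guide strands cel-miR-35-3p, cel-miR-36-3p, cel-miR-37-3p, cel-miR-38-3p, cel-miR-39-3p, cel-miR-40-3p, cel-miR-41-3p and cel-miR-42-3p. All 8 had a probe on the array, chosen by name alone, out of 156 worm probes. The family's levels came from 6 single-colour arrays, 1 array for every pairing of 2 strains with 3 exposures. The mutant, labelled ced-1(n1995), had been in a static slot in orbit (1.92 mGy of radiation, gravity no higher than 0.01 g), in a 1 g centrifuge slot in orbit (2.27 mGy) or in a static slot on the ground. Wild-type N2 went through the same exposures. All 6 groups began as about 100000 worms of the dauer stage, an arrested larva that withstands stress, kept on fresh medium at 23 °C for 16.5 days and collected 7 h after the end. ced-1 encodes a receptor by which cells engulf dying neighbours. The labels name the mutant strain both LS292 and MT4930, and LS292 is better known as a strain carrying a dys-1 mutation, so the genotype of the mutant arrays cannot be settled from them.

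The family acts redundantly in worm embryos. Its members share a seed, the short 5′ stretch that sets target choice, so they can repress the same messages. The family is made in the maternal germline and the early embryo, worms that lack it die as embryos or young larvae, and its levels drop as larvae hatch. Its known targets include sup-26 and nhl-2, which act in sex determination, and egl-1, an activator of cell death that the miR-58/bantam family also represses. In the RefSeq gene table of assembly WBcel235, mir-35 to mir-41 are 7 consecutive miRNA genes on chromosome II. mir-42 lies farther along the same chromosome, followed by mir-43 and mir-44. The labels start from dauer larvae and do not give the stage at collection, and the array held no messenger RNA probe for embryo or germline, so the tissue behind these signals was not tested.

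Each worm probe was spotted 4 times, once in each of 4 sub-arrays. The values below are intensities of foreground minus local background, unscaled unless stated, and a probe's level on an array is the median of its 4 spots. The control limit is the 95th percentile of the 476 spike-control spots of the same array. Taking the arrays in the order static, centrifuge and ground, it stood at 97, 75.3 and 150 in the mutant and at 14, 20 and 13.3 in N2. With 1 array in each group, the number of arrays sets the precision. Raw values differ between arrays in overall brightness, so differences between arrays are given after scaling. With 1 worm sample per array, fewer cells making a miRNA and less of it per cell cannot be told apart.

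The number of family members above the control limit was highest on the mutant centrifuge array and lowest in N2, as over all worm probes. The mutant static and ground arrays came in the opposite order. On the mutant centrifuge array 6 of 8 members exceeded it, where 58.3% of all worm probes did. On the mutant static array 2 of 8 did, against 34.0% of worm probes, and on the mutant ground array 3 of 8, against 23.1%. In N2, 1 of 8 did under each exposure, where 17.3% (static), 19.9% (centrifuge) and 19.2% (ground) of worm probes did. Shares this near to those of all worm probes are no result about the family. cel-miR-38-3p was the member above the limit on all 6 arrays, and cel-miR-36-3p and cel-miR-41-3p were above it on none.

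**Figure D1:**
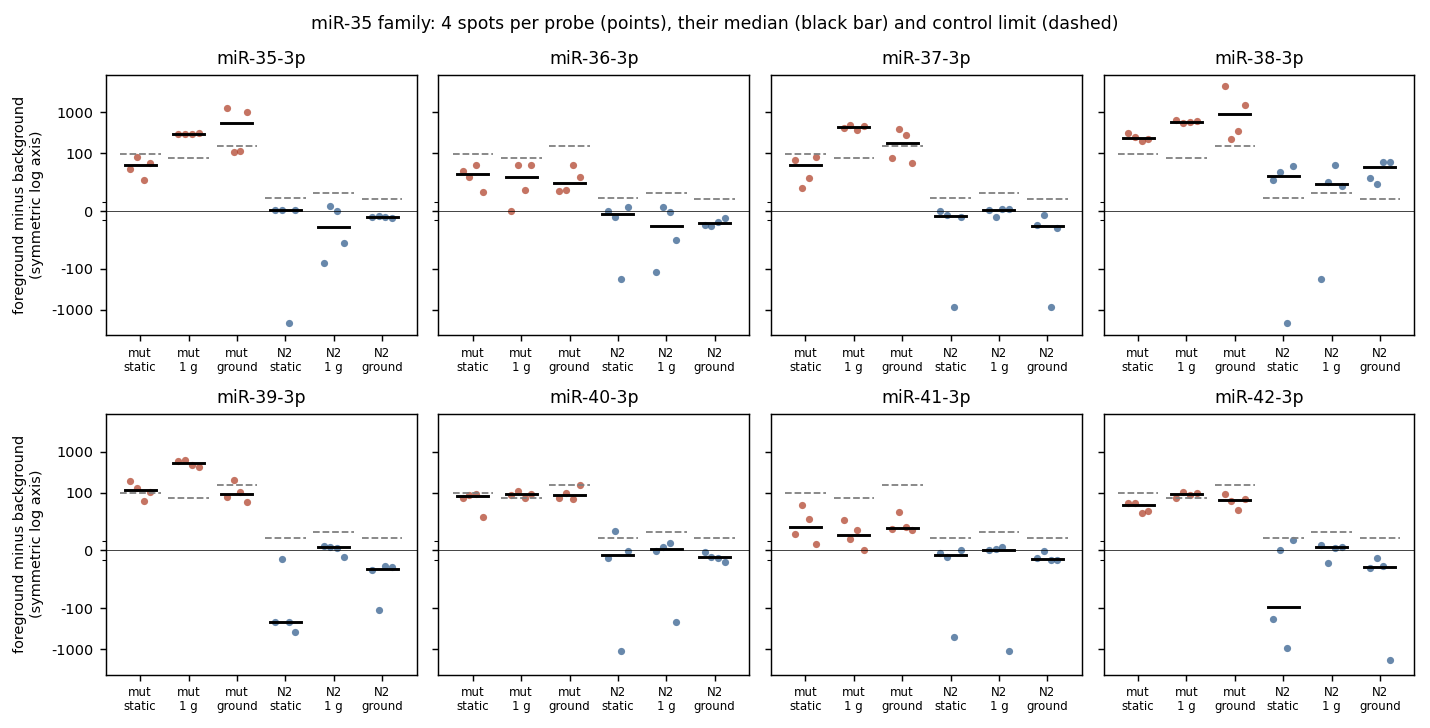
Intensity of each of the 4 spots (points, sub-arrays 1 to 4 from left to right), their median (black bar) and the control limit (dashed) for the 8 family members on the 3 mutant arrays (red) and the 3 N2 arrays (blue) on a symmetric log axis that is linear near 0. The mutant centrifuge spots lie close together, the mutant ground spots of cel-miR-35-3p and cel-miR-38-3p split into bright and dim pairs, and N2 spots lie near or below 0 apart from cel-miR-38-3p.

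cel-miR-38-3p, encoded in the middle of the mir-35 to mir-41 cluster, exceeded the control limit on every mutant array. Its median exceeded the brightest control spot in static flight (137) and in the centrifuge (122), but not on the ground (1837). Its spots in sub-arrays 1 to 4 read 315, 252, 196 and 222 in static flight (median 237), 649, 535, 576 and 614 in the centrifuge (median 595), and 4281, 221, 344 and 1488 on the ground (median 916). Before scaling, the static spots lay below the centrifuge spots without overlap. No unscaled ground spot fell within the centrifuge range: both dim ones lay below it and both bright ones above it. On the ground array the brightest spot was 19.4 times as bright as the dimmest, which lay within the unscaled static range. After scaling, the static spots lay above the centrifuge spots without overlap (levels of 353 and 196).

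cel-miR-35-3p, the first gene of the cluster and the member after which the family is named, showed the same split. It read 46, 81, 34 and 58 in static flight (median 52), 301, 290, 301 and 313 in the centrifuge (median 301), and 1271, 105, 111 and 1006 on the ground (median 558.5). Before scaling, all 4 centrifuge spots lay above all 4 static spots, and the ground spots fell on both sides of the centrifuge range. After scaling, the static and centrifuge spots overlapped (levels of 77.5 and 99.1), and in sub-array 2 the static spot was the higher. The static median was under the control limit and close to the median control spot, at 53. The bright ground spots were those of sub-arrays 1 and 4, as for cel-miR-38-3p, which was printed 1 row away in the same column of each block.

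The bright ground spots of both members lay where the local background was high. For cel-miR-35-3p the background was 146 and 135 at the bright spots of sub-arrays 1 and 4, and 61 and 63 at the dim spots of sub-arrays 2 and 3. For cel-miR-38-3p it was 159 and 121 at the bright spots, and 60 and 68 at the dim ones. The median intensity over the other spots of those blocks was 101 and 124 in sub-arrays 1 and 4, and 66 and 68 in sub-arrays 2 and 3. cel-miR-36-3p, printed in the same blocks, was under the control limit on every array. It read 22 and 38 where its background was 120 and 111, and 23 and 51 where it was 55 and 64. The part of the background in the ground levels was not tested.

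**Figure D2:**
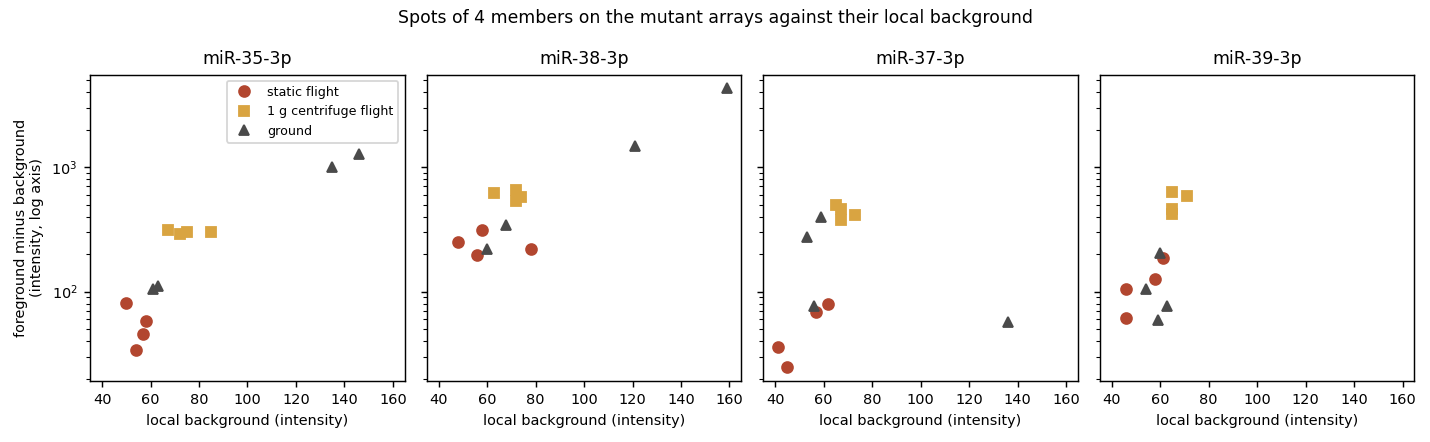
Foreground minus local background (log axis) against local background for the 4 spots of 4 members on the mutant static (circles), centrifuge (squares) and ground (triangles) arrays. The bright ground spots of cel-miR-35-3p and cel-miR-38-3p have backgrounds of 121 to 159, and the dim ground spots of the same probes have 60 to 68.

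cel-miR-37-3p, also of the cluster, had its highest unscaled level on the mutant centrifuge array, whereas after scaling the ground level was the higher (144 in the centrifuge, 163 on the ground). Its spots read 69, 25, 36 and 80 in static flight (median 52.5), 414, 494, 374 and 462 in the centrifuge (median 438), and 76, 395, 275 and 57 on the ground (median 175.5). The centrifuge spots lay above the static spots without overlap, and above the ground spot at the same position in 4 of 4 sub-arrays. Its ground spots split the other way from those of cel-miR-35-3p, with sub-arrays 2 and 3 bright. The dim ground spots of sub-arrays 1 and 4 had backgrounds of 56 and 136, and the bright ones 59 and 53. The static median was under the control limit of 97 and close to the median control spot, at 53.

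cel-miR-39-3p, whose synthetic copy is widely added to mammalian plasma as a reference because mammals lack it, had centrifuge spots apart from all others before scaling. It read 187, 126, 62 and 105 in static flight (median 115.5), 583, 629, 463 and 419 in the centrifuge (median 523), and 77, 205, 105 and 59 on the ground (median 91). All 4 centrifuge spots stood above all static and all ground spots. The static and ground spots overlapped, and the ground median lay under the control limit. After scaling, the centrifuge spots overlapped both.

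The other 4 members stayed near or under the control limit in the mutant. cel-miR-40-3p had medians of 81.5, 90.5 and 87 on the static, centrifuge and ground arrays, and exceeded the limit on the centrifuge array alone. cel-miR-42-3p, the member encoded outside the cluster, had medians of 50, 92.5 and 66, and likewise exceeded it on the centrifuge array alone. For both, the centrifuge limit is the lowest of the 3 mutant limits, and the lowest of the 4 spots was under it (74 for cel-miR-40-3p and 73 for cel-miR-42-3p). cel-miR-36-3p read 40.5, 37 and 30.5, and cel-miR-41-3p 26, 17 and 25. Both genes lie in the cluster, and neither exceeded the limit on any array.

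On the N2 arrays 7 of 8 members were under the control limit throughout. cel-miR-38-3p read 34, 43, -2055 and 50 in static flight (median 38.5), -173, 32, 52 and 28 in the centrifuge (median 30) and 36, 30, 61 and 60 on the ground (median 48). It exceeded the limits of 14, 20 and 13.3, and all 4 spots did so on the ground array, but it did not exceed the brightest control spot, at 40, 35 and 53. Before background subtraction, the family's 32 spots per N2 array had median foregrounds of 71.5, 55.5 and 63.5 in the same order, against 69, 59 and 66 for the control spots. Local background reached 2269, 1224 and 1928 beside some member spots there, and 23, 14 and 28 of the 32 member spots were at or below 0 after subtraction. No member's unscaled level reached 50, the lower limit used for differences, on any N2 array, so no N2 difference between exposures was drawn for the family.

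Differences within the mutant rest on 1 array against 1 and have no test. Each array was multiplied by a scale factor from 8 worm probes bright on all arrays, none of them a family member. The factors were 1.49, 0.329 and 0.927 for static, centrifuge and ground. Values under 50 after scaling were set to 50, and differences are on the log2 scale of scaled intensity. The technical SE beside each difference comes from the spread of the 4 spots and covers neither the scaling nor the spread between worm samples. Where a range is given, it spans this setting and 9 other processing settings with the same sample names. A level under the control limit is only an upper bound. Where 1 of the arrays had such a level, the fold is given as a lower bound, against the higher of the member's own scaled level and the lowest scaled worm probe above the limit on that array, which was 145 for static and 141 for ground. No fold is given where this came out under 1. Such a bound holds for this setting alone and takes the brighter level as exact.

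Static flight against ground compares orbit at near-zero gravity with the ground in the mutant. cel-miR-38-3p was the member above the limit on both arrays. It read 353 in static flight against 849 on the ground after scaling, a log2 difference of -1.27 (technical SE 0.99, range -1.95 to 0.35), and the upper end came with sub-arrays 2 and 3 alone. Its differences in sub-arrays 1 to 4 were -3.08, 0.87, -0.13 and -2.06, so the direction was not the same at every position. cel-miR-35-3p read 77.5 in static flight, not above the limit, against 518 on the ground. In this setting it was at least 3.56-fold lower in static flight. At face value its log2 difference was -2.74, with a range of -3.42 to -0.22, and the upper end came with sub-arrays 2 and 3 alone. The bound thus did not hold over the settings. By position it differed by -4.10, 0.31, -1.02 and -3.43. For both members the large negative values lay at the positions with high background on the ground array. cel-miR-37-3p read 78.2, not above the limit, against 163, and was at least 1.12-fold lower. Its differences were 0.55, -2.87, -2.25 and 1.17, so 2 of 4 positions went the other way. The ground backgrounds at these positions were 56, 59, 53 and 136 in the same order. cel-miR-39-3p read 172 in static flight against 84.3 on the ground, not above the limit there, and was at least 1.22-fold higher. With sub-arrays 2 and 3 alone its log2 difference was -0.036, so its direction did not hold over the settings.

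Over the 6 members that reached 50 on either array, the median log2 difference of static flight against ground was -0.39 (SD over sub-arrays 0.50), against 0.53 over all 137 worm probes compared. By sub-array the family median was 0.28, 0.41, -0.10 and -0.70, and it turned to 0.16 with sub-arrays 2 and 3 alone and to 0.14 over all 8 members. It therefore has no settled direction. Of the 6, 3 were at least 2-fold lower, where 7.30% of worm probes were, and 1 was at least 2-fold higher, where 26.3% were. These counts take levels under the control limit at face value.

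The 1 g centrifuge flight against ground compares flight at normal gravity with the ground. cel-miR-35-3p, cel-miR-37-3p and cel-miR-38-3p were above the limit on both arrays. cel-miR-35-3p read 99.1 in the centrifuge against 518 on the ground (-2.38, technical SE 0.98, range -2.38 to -0.041). cel-miR-38-3p read 196 against 849 (-2.12, technical SE 0.98, range -2.53 to -0.52). In sub-arrays 2 and 3 the differences of cel-miR-35-3p were -0.027 and -0.054 and those of cel-miR-38-3p -0.22 and -0.75, far smaller in size than in sub-arrays 1 and 4. cel-miR-37-3p read 144 against 163 (-0.17, technical SE 0.69), with a range of -1.12 to 1.32 whose upper end came without scaling. cel-miR-39-3p read 172 against 84.3, not above the limit on the ground, and was at least 1.22-fold higher in the centrifuge. Its log2 difference was above 0 in each of the 4 sub-arrays and under all 10 settings, with the ground level taken at face value. cel-miR-40-3p and cel-miR-42-3p were at the floor in the centrifuge after scaling and not above the limit on the ground.

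The family median of the centrifuge against ground was -0.49 over 6 members (SD over sub-arrays 0.36), against -0.31 over 138 worm probes. It came to 0.27 without scaling, -0.015 with quantile normalization and -1.40 with normexp, so neither its direction nor its size held. At face value 2 members were at least 2-fold lower (18.1% of worm probes) and 1 was higher (8.70%). Both flights were set against the same ground array, so their values share its spots.

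Static against centrifuge flight sets near-zero gravity against 1 g, both in orbit, and the radiation dose also differed between the slots. cel-miR-38-3p and cel-miR-39-3p were above the limit on both arrays. cel-miR-38-3p read 353 in static flight against 196 in the centrifuge (0.85, technical SE 0.16), although each unscaled static spot was below each centrifuge spot, and came to -1.33 without scaling and -0.030 with the authors' normalized intensity. cel-miR-39-3p read 172 on both arrays after scaling, with a range of -2.18 to 0.19. Neither direction thus held over the settings. The other members above the limit in the centrifuge were not above it in static flight, and their bounds came out under 1, so no fold is given. Their scaled levels were 77.5 in static flight and 99.1 in the centrifuge for cel-miR-35-3p, 78.2 and 144 for cel-miR-37-3p, 121 and 29.8 for cel-miR-40-3p, and 74.5 and 30.5 for cel-miR-42-3p. At face value cel-miR-37-3p was lower in static flight in each of the 4 sub-arrays and under all 10 settings (range -3.06 to -0.26). cel-miR-35-3p, cel-miR-40-3p and cel-miR-42-3p did not keep 1 direction over the settings.

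The family median of static against centrifuge flight was 0.29 over 6 members (SD over sub-arrays 0.40), against 0.82 over 136 worm probes. It turned to -1.75 without scaling, -0.39 with 75th percentile scaling, -0.37 with quantile normalization and -0.46 with the authors' values, so its direction rests on the scaling. At face value 1 of the 6, cel-miR-40-3p, was at least 2-fold higher (37.5% of worm probes) and 0 were lower (0.735%).

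**Figure D3:**
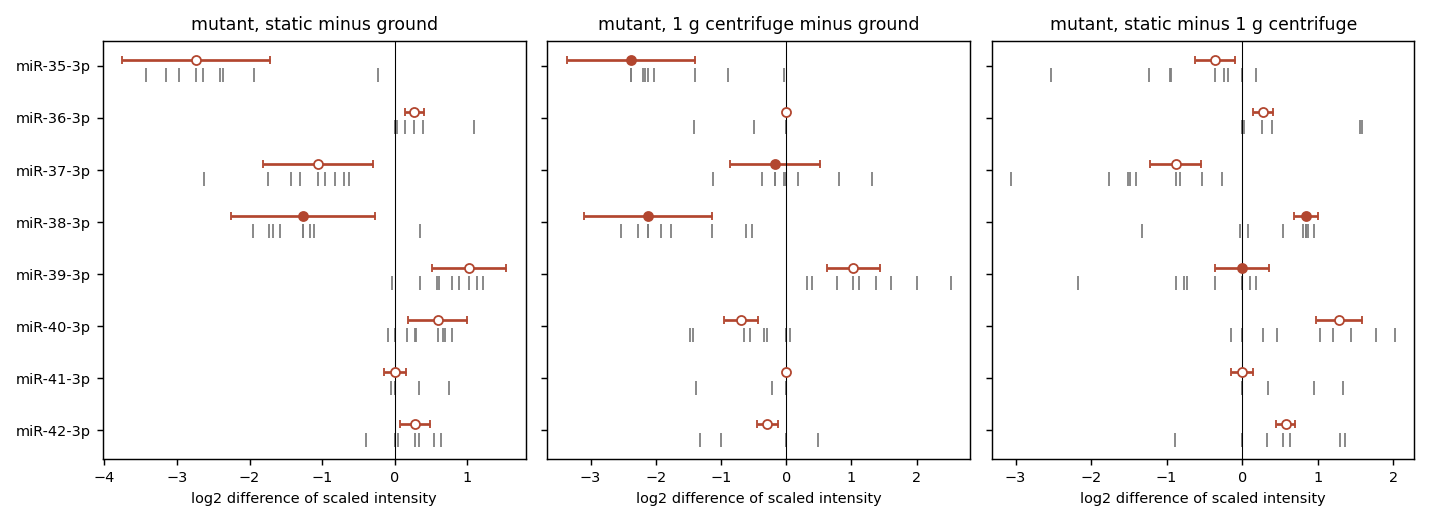
Log2 differences of scaled intensity within the mutant for the 8 members, for static flight minus ground, 1 g centrifuge flight minus ground and static minus centrifuge flight (points with technical SE from the 4 spots; filled where the member was above the control limit on both arrays, open otherwise), with the same difference under each of 9 other settings (grey ticks). Of the filled points, cel-miR-38-3p spans -1.95 to 0.35 in the left panel and -1.33 to 0.96 in the right one, and cel-miR-35-3p -2.38 to -0.041 in the middle one.

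A model over all 6 arrays, with strain and exposure as additive terms (limma, Benjamini-Hochberg adjustment over 128 worm probes), takes the strains as the replicates of an exposure. The filter of 50 on at least 2 arrays passed 6 of 8 members and left out cel-miR-36-3p and cel-miR-41-3p. The 6 passed through the mutant arrays alone. For the exposures, 0 of the 6 passed an adjusted p of 0.05 and 0 had an unadjusted p under 0.05, where 0% of all probes passed in each comparison. Over all probes, 3, 1 and 0 had an unadjusted p under 0.05 for static against ground, centrifuge against ground and static against centrifuge. The lowest unadjusted p among members was 0.0766, for cel-miR-38-3p in the centrifuge against ground (log2 estimate -1.23, SE 0.56, limma adjusted p = 1.00). Since N2 values of 5 of these members were at the floor of 50 on all arrays, their estimates average the mutant difference with 0. The difference between the strains in their response to exposure also enters their SE, so a larger change in the mutant alone widens its own error. The counts of 0 therefore say little about these 5 members within the mutant.

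Between the strains, members exceeded the control limit mainly on the mutant arrays, and worm probes in general also did so more often there. Over all worm probes the shares were 34.0%, 58.3% and 23.1% in the mutant (static, centrifuge, ground), against 17.3%, 19.9% and 19.2% in N2. The scaled levels of cel-miR-38-3p were 353, 196 and 849 in mutant static, centrifuge and ground worms, against 97.7, 82.6 and 105 on the N2 arrays in the same order, so the strains did not overlap. In the fit it had a log2 estimate of 2.04 (SE 0.46, limma adjusted p = 0.0317), and 1 of 6 tested members passed, where 20.3% of all probes did. The 6 were admitted by their mutant levels alone, and 5 sat at the floor throughout N2. For those 5 an estimate above 0 was fixed by that choice. cel-miR-38-3p, the member that passed, was above the floor in N2 only after scaling, and was likewise admitted through the mutant. The test therefore supports no strain difference for the family. With no filter, 0 of 8 members passed, as also when any 1 array was left out. Each strain has its own raw table, and the difference between tables cannot be told apart from that between strains.

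The neighbours of mir-42 were set beside the family. cel-miR-43-3p was under the control limit on all 6 arrays. The probe shared by cel-miR-44-3p and cel-miR-45-3p exceeded it on the 3 mutant arrays and on 0 of 3 N2 arrays. The 3 worm probes with mutant differences nearest to the family medians, out of 27 above the control limit on all 3 mutant arrays, were cel-miR-64-5p, cel-miR-65-5p and cel-miR-55-3p. cel-miR-64-5p differed by -0.26 in static flight and -0.46 in the centrifuge against ground, at a summed distance of 0.15 over the 2 differences. The distances were 0.48 for cel-miR-65-5p and 0.53 for cel-miR-55-3p.

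Other seed families gave other counts above the control limit. The let-7 family, regulators of developmental timing, had 5, 6 and 4 of 7 probes above it in the mutant (static, centrifuge, ground), against 2, 6 and 3 of 8 for the miR-35 family. The miR-51 family, which also acts in embryos, had 3, 5 and 2 of 6, and the miR-58/bantam family, abundant in the larval and adult body, had 4 of 5 on each. In N2 the let-7 family had 3, 2 and 3 probes above the limit, the miR-51 family 3 on each array and the miR-58/bantam family 1, 1 and 2, where the miR-35 family had 1 on each. The median log2 difference of static flight against ground in the mutant was 0.46, 0.45 and -0.27 for the let-7, miR-51 and miR-58/bantam families, at face value. For the centrifuge against ground it was -0.062, -0.46 and -0.71 in the same order, beside -0.49 for the miR-35 family. For static against centrifuge flight it was -0.072, 0.66 and 0.44, beside 0.29. No test of a difference between families was made.

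**Figure D4:**
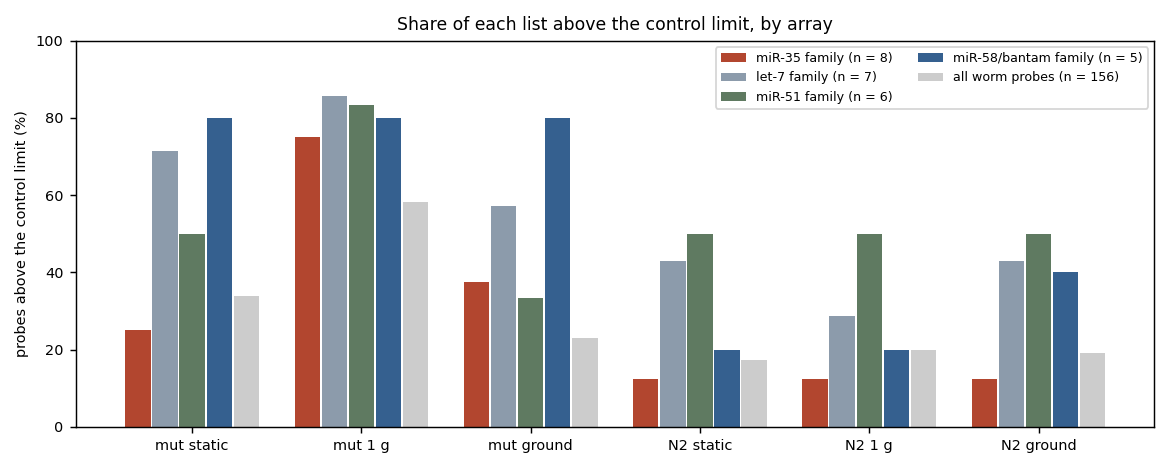
Percentage of probes above the control limit for the miR-35 family, 3 other seed families and all 156 worm probes on each array, mutant arrays to the left of N2 arrays. The miR-35 family had 6 of 8 probes above the limit on the mutant centrifuge array and 1 of 8 on each N2 array.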

How the data were processed

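Hy3-labelled total RNA (1 µg per sample) was measured on 6 arrays. Per the file headers, the deposited raw tables give each spot's intensity as foreground and as foreground minus background. A further deposited table gives the authors' intensity per probe and a normalized intensity, equal to the former divided by 1 factor per array, by a rule not stated in the sources used. The median of the 4 spots equals the authors' value on 2314 of 2314 probes per array (tolerance 0.01). Columns of the series value table equal, at a relative tolerance of 0.0001, those of other samples in the expression table, so samples were named as in the raw tables. A total of 12 other value columns were not used.

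Worm probes are those named in the newer raw table plus those named only in the older one whose miRNA the newer one names nowhere. Arrays were scaled to the median of the 8 worm probes at 50 or more on all arrays, floored at 50 and put on the log2 scale. limma 3.58.1 in R 4.3.3 was tested on simulated data. Labels name no repeat cultures, and no group has a repeat array. The error behind a p-value here therefore includes any difference between the strains in their response to exposure. This cannot be separated from array-to-array spread, which may be technical. Members, lists and tests were chosen with earlier results of these data known. All 8 members are named, with listed families and the 3 nearest probes. Alternatives changed spot summary, scaling, background, floor, filter and control limit. Sequences are not used here.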

Additional observations from a re-analysis of the deposited data

How the results depend on the processing

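The count of members past the threshold was 0 for the 3 exposure comparisons under every alternative that kept a member, leave-one-out fits included; no member reached 50 on all 6 arrays, so that filter gave no value. These counts of 0 carry the limit given above for members at the floor in N2. Between the strains the count of 1 became 4 with a floor of 20 and 3 with normexp. It became 0 with 75th percentile scaling, quantile normalization, a floor of 100, no filter or the series value table as labelled, and ran from 0 to 0 without 1 array, where fewer residual degrees of freedom remain. The family median of static flight against ground was -1.07 without scaling, -1.16 over members above the control spots, 0.14 over all 8 members, 0.16 with sub-arrays 2 and 3 alone and 1.83 with the series table as labelled. That of the centrifuge against ground was 0.27 without scaling, -0.015 with quantile normalization, -1.22 and -0.087 with floors of 20 and 100, -1.40 with normexp and 0.00 with the series table. That of static against centrifuge flight was -1.75 without scaling, -0.39 with the 75th percentile, -0.37 with quantile normalization, -0.46 with the authors' values and 1.89 with the series table. The cause was not tested. Member values above the control limit, 11 in the mutant and 3 in N2, became 5 and 0 against the brightest control spot and 6 and 1 when the lowest spot had to exceed the limit. In N2 the number was 1 with spot means and 1 with foreground alone. Single members turned for static flight against ground with the series table (cel-miR-35-3p 1.62, cel-miR-37-3p 2.16, cel-miR-38-3p 2.05) and with sub-arrays 2 and 3 (cel-miR-38-3p 0.35, cel-miR-39-3p -0.036); without scaling, static against centrifuge flight turned to -0.15 for cel-miR-40-3p and -1.33 for cel-miR-38-3p, and centrifuge against ground to 1.32 for cel-miR-37-3p. Other differences also changed sign under some settings. The series table, the sub-array pair and the foreground alone were chosen after seeing the data. No paired analysis was possible because each group has 1 array; strain is a term of the model.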

Other observations

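The series value table places the family's bright values under other sample names. Its column labelled N2 static holds the expression table's mutant static values, its column labelled mutant static those of mutant centrifuge, and its column labelled N2 centrifuge those of mutant ground. Its columns labelled mutant centrifuge, N2 ground and mutant ground hold the expression table's N2 static, N2 centrifuge and N2 ground values. Under those labels cel-miR-39-3p, brightest on the array that the raw tables name mutant centrifuge, would be brightest in mutant static flight. The sample descriptions name the raw tables' sample codes.

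Among worm probes above the control limit, the median SD of the 4 spots on the log2 scale was 0.32 on the mutant static array, 0.23 on the mutant centrifuge array and 1.36 on the mutant ground array. On the ground array 8, 4, 1 and 13 of 36 such probes had a spot more than 2-fold above the probe's own median in sub-arrays 1, 2, 3 and 4.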
